A study of Mus musculus with 14 samples.

Results

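The 10 genes described here belong to the response to low oxygen and to glycolysis, namely *Hif1a*, *Egln3*, *Slc2a3*, *Hk2*, *Pfkfb3*, *Pgk1*, *Ldha*, *Slc16a3*, *Pdk1* and *Bnip3*. They were chosen by symbol, as *Hif1a* and known targets of its protein, and are 10 of the 46904 genes in the expression table. All 10 were measured in all 14 libraries and passed the filter on low values. The RNA came from brain hemispheres of 12-week-old male mice on a C57BL/6J background, 48 h after a transient occlusion of the left middle cerebral artery (MCAO) for 20 min with a filament. Wild-type mice (*Cort*+/+) gave 3 libraries of the contralateral hemisphere (CL) and 3 of the ischemic hemisphere (MCAO, replicates 2, 3 and 4), and MCAO replicates 1 and 5 of these mice were not analysed here. The study's methods state that comparisons with wide scatter kept replicates that grouped together, and whether this bears on the *Cort*+/+ libraries is not given in the sources used here. Mice without the neuropeptide cortistatin (*Cort*-/-) gave 3 CL and 5 MCAO libraries. Every group therefore comes from operated animals, CL hemispheres included, and *Cort* is missing from every cell of the *Cort*-/- mice and not from one cell type. Whether CL and MCAO libraries with the same number share a mouse is not given in the sources used here. The tests set differences between groups against the spread between these libraries, which were taken as independent unless blocked by replicate number.

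Hypoxia-inducible factor (HIF) is the main switch of the transcriptional response to low oxygen. Its alpha subunit, encoded by *Hif1a*, is made all the time, and prolyl hydroxylases such as that encoded by *Egln3* mark it for destruction while oxygen is present, so that the pathway is controlled largely at the protein level. When oxygen falls, HIF enters the nucleus with its partner ARNT, binds a short DNA core and raises the expression of glucose transporters, glycolytic enzymes and lactate exporters, and of genes that restrain mitochondria. In the brain, ischemia stops the supply of oxygen and glucose together, and neurons, astrocytes, endothelial cells and microglia differ in how far they rely on glycolysis.

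The sequences show where the letters of the recognition core of HIF stand before a RefSeq start of these genes. They are the 250 bases before the transcription start in RefSeq (build GRCm38.p6), matched exactly to GRCm39, 5′ to 3′ along the gene, for the 3 members that rose in the ischemic hemisphere (*Hk2*, *Slc16a3* and *Ldha*, first RefSeq start) and, for contrast, for *Bnip3*. Capitals mark the core ACGTG or GCGTG on either strand, where the palindrome CACGTG is counted once for each strand. The starts used lie 4329 bases (*Ldha*) and 1047 bases (*Slc16a3*) inside the genes as GENCODE M39 draws them, so these stretches lie within both genes and before a start further in, while those of *Hk2* and *Bnip3* lie 34 and 18 bases from the GENCODE start.
Hk2, chr6:82751436-82751685, minus strand: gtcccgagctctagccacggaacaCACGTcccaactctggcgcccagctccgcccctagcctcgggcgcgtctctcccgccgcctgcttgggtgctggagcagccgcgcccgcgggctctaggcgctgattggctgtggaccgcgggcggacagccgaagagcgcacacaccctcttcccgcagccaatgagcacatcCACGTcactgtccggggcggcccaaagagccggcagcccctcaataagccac
Slc16a3, chr11:120839643-120839892, plus strand: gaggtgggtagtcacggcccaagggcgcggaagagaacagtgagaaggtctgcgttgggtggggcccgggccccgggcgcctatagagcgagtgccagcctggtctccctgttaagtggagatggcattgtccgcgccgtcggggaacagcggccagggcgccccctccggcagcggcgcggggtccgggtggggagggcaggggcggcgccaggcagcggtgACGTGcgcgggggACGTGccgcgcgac
Ldha, chr7:46494978-46495227, plus strand: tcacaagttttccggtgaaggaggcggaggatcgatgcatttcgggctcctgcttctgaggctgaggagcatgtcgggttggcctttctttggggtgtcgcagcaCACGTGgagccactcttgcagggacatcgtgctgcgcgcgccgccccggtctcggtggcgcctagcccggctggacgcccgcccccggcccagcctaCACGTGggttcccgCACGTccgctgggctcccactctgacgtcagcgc
Bnip3, chr7:138511236-138511485, minus strand: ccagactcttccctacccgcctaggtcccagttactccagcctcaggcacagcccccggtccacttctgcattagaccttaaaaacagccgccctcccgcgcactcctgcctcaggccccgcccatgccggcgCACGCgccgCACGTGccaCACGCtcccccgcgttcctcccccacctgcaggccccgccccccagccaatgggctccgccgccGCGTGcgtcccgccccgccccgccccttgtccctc

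*Hk2* and *Slc16a3* each hold 2 matches in these bases, while *Ldha* (first RefSeq start) and *Bnip3* hold 5 each. The 250 bases before the second RefSeq start of *Ldha*, not shown, hold 1 match. RefSeq promoter windows, which run from 250 bases before to 50 bases after the start, were given for 9 of the 10 members (12 windows). A match was held by 11 of these 12 windows, against 43.8% of all 32851 RefSeq windows, and 5 or more matches by 2 of them (*Ldha* and *Bnip3*), against 1.66%. The members were chosen as known HIF targets, and these shares carry no test. A match is a description of the letters and no site of binding. *Bnip3*, with 5 matches, passed the test in none of the 6 comparisons below.

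Depth and the libraries that stand apart bear on every value below. The libraries held between 25989673 and 43032291 reads on genes, as recovered from the values, and *Cort* itself had 0 to 4 reads in *Cort*-/- and 64 to 139 reads in *Cort*+/+ libraries. On a score that runs from 0 for the mean CL to 1 for the mean MCAO library over 15063 genes, made for each library from the other 13, *Cort*+/+ CL replicate 1 and *Cort*-/- CL replicate 2 stood at 0.388 and 0.309 while the other 4 CL libraries lay between -0.0387 and 0.0644. *Cort*+/+ MCAO replicate 4 stood at 0.412, against 0.647 to 1.42 in the other 7 MCAO libraries. Results that rest on these 3 libraries are also given without them, a choice made after the values were seen. Since they were picked for lying toward the other hemisphere, leaving them out by itself tends to widen differences between CL and MCAO libraries, and a call gained without them supports nothing.

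RPKM values are reads divided by library size and gene length and can be compared between genes. *Ldha*, which interconverts pyruvate and lactate, and *Pgk1*, an ATP-producing enzyme of glycolysis, were the most expressed members, with mean levels of 122 and 121 RPKM over the 14 libraries, and their ranges overlapped. *Bnip3*, a mitochondrial protein that promotes removal of mitochondria, followed at 40.2 RPKM, with a range that overlapped that of the neuronal glucose transporter *Slc2a3* (37.5 RPKM). *Hif1a* (13.9 RPKM) and *Pdk1* (12.0 RPKM), a kinase that blocks entry of pyruvate into mitochondria, also overlapped. *Pfkfb3*, which makes the activator of phosphofructokinase, had a mean level of 8.25 RPKM, and *Egln3* of 3.21 RPKM. *Hk2*, the inducible hexokinase that traps glucose in the cell, and *Slc16a3*, the lactate exporter MCT4, were the lowest at 1.19 and 0.983 RPKM, and their ranges overlapped. The reads behind these values ranged from 91 to 274 per library for *Slc16a3* and from 134 to 449 for *Hk2*, and from 6004 to 11130 for *Ldha*. The spread over the 14 libraries was widest in these lowest genes, with a coefficient of variation of 35.0% for *Hk2* and 27.4% for *Slc16a3*, against at most 9.74% for the other 8 members.

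**Figure D1:**
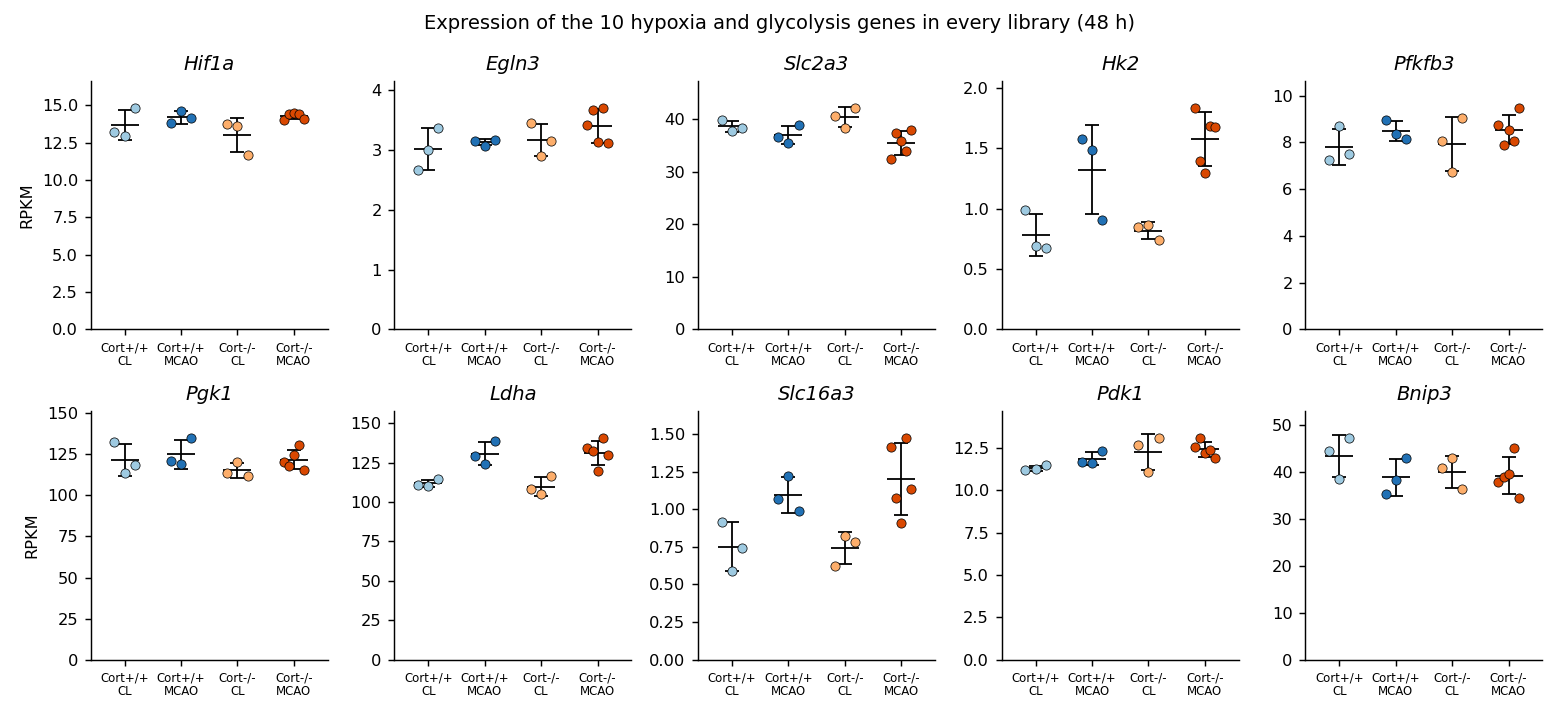
Expression of each gene in every library, in RPKM on the vertical axis (from 0), for the 4 groups on the horizontal axis. Points are libraries and the bars give mean and SD. Within each genotype, *Hk2*, *Slc16a3* and *Ldha* lie higher in MCAO than in CL hemispheres, with 1 *Cort*+/+ MCAO library of *Hk2* (0.903 RPKM) within the *Cort*+/+ CL range.

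*Hk2*, *Ldha* and *Slc16a3* were higher in ischemic hemispheres when both genotypes were averaged, and the other 7 genes did not pass the test. In this average *Hk2* rose 1.70-fold (95% interval 1.39 to 2.08), *Slc16a3* 1.47-fold (1.21 to 1.79) and *Ldha* 1.18-fold (1.11 to 1.26). These 3 genes stand at the entry of glucose into glycolysis, at the step to lactate and at the export of lactate. The comparison used limma on log2(RPKM + 0.1) in one model of the 4 groups over 46102 genes, with Benjamini-Hochberg adjustment, and folds are on that scale, which understates changes of low genes. Adjusted p was 0.00817 for *Hk2*, 0.00755 for *Ldha* and 0.0316 for *Slc16a3*. All 3 of the 10 members called were higher, against 2.52% of all tested genes called higher and 3.43% called in either direction. Limma voom on reads recovered from the RPKM values called the same 3, against 4.65% of tested genes. All 3 calls ended when libraries were blocked by replicate number, with or without regard to genotype. Limma adjusted p then reached up to 0.130 for *Hk2*, 0.279 for *Ldha* and 0.240 for *Slc16a3*. The median log2 difference of the 10 members was 0.09, against 0.00 over all genes tested.

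In *Cort*-/- mice, *Hk2* was at 0.847, 0.868 and 0.743 RPKM in CL replicates 1 to 3, and at 1.84, 1.39, 1.29, 1.68 and 1.68 RPKM in MCAO replicates 1 to 5. In *Cort*+/+ mice it was at 0.987, 0.690 and 0.673 RPKM in CL replicates 1 to 3, and at 1.58, 1.49 and 0.903 RPKM in MCAO replicates 2 to 4. All 5 *Cort*-/- MCAO libraries exceeded all 3 CL libraries, whereas in *Cort*+/+ mice MCAO replicate 4 lay below CL replicate 1, both among the 3 libraries that stand apart. The log2 difference of *Hk2* was 0.86 in *Cort*-/- mice (standard error 0.18, limma adjusted p = 0.0341) and 0.67 in *Cort*+/+ mice (standard error 0.20, limma adjusted p = 0.342). Without the 3 libraries that stand apart it was 0.90 and 1.06, values given with no test because of how these libraries were picked. Leaving out any one of *Cort*-/- CL replicates 1, 2 or 3 or MCAO replicates 1, 4 or 5 ended the *Cort*-/- call, with adjusted p between 0.0764 and 0.141 and a difference between 0.80 and 0.90. It also ended with only the *Cort*-/- groups in the fit (limma adjusted p = 0.0526). The average over genotypes held for *Hk2* in each of the 14 fits that leave out 1 library, with adjusted p up to 0.0286. With a pseudocount of 1 in place of 0.1 the log2 difference of *Hk2* was 0.50 in *Cort*-/- mice, 0.37 in *Cort*+/+ mice and 0.44 in the average (limma adjusted p = 0.0485, 0.435 and 0.0141).

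*Ldha* was at 108, 105 and 117 RPKM in *Cort*-/- CL and at 134, 132, 120, 141 and 130 RPKM in *Cort*-/- MCAO libraries. In *Cort*+/+ mice it was at 111, 110 and 115 RPKM in CL and at 129, 124 and 139 RPKM in MCAO libraries. MCAO and CL libraries did not overlap in either genotype. The log2 difference of *Ldha* was 0.26 in *Cort*-/- mice (standard error 0.06, limma adjusted p = 0.0379) and 0.22 in *Cort*+/+ mice (standard error 0.06, limma adjusted p = 0.306). The *Cort*-/- call ended without any one of 10 libraries, namely *Cort*-/- CL replicates 1, 2 or 3, *Cort*-/- MCAO replicates 1, 2, 4 or 5, *Cort*+/+ CL replicates 2 or 3 and *Cort*+/+ MCAO replicate 2, with adjusted p between 0.0521 and 0.155, and with only the *Cort*-/- groups in the fit (limma adjusted p = 0.114). In all 14 fits that leave out 1 library the *Cort*-/- difference of *Ldha* lay between 0.22 and 0.30. The average over genotypes was called in all 14 of these fits, with adjusted p up to 0.0255. It was 0.20 (limma adjusted p = 0.0628) without the 3 libraries that stand apart. *Ldha* and *Pgk1* have processed copies in the genome, and of those listed *Ldha-ps2* had the highest mean level, 0.437 RPKM, so a small part of the reads of either gene may be split with a copy.

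*Slc16a3* was at 0.619, 0.825 and 0.784 RPKM in *Cort*-/- CL and at 1.42, 1.08, 0.910, 1.47 and 1.13 RPKM in *Cort*-/- MCAO libraries. In *Cort*+/+ mice it was at 0.917, 0.591 and 0.741 RPKM in CL and at 1.07, 1.22 and 0.987 RPKM in MCAO libraries. The groups did not overlap in either genotype, although the highest *Cort*+/+ CL library (replicate 1) came close to the lowest MCAO library. The log2 difference of *Slc16a3* was 0.62 in *Cort*-/- mice (standard error 0.17, limma adjusted p = 0.103) and 0.50 in *Cort*+/+ mice (standard error 0.19, limma adjusted p = 0.515), so that neither genotype passed alone. Its call in the average ended without any one of *Cort*-/- CL replicates 1 or 3, *Cort*-/- MCAO replicates 1, 4 or 5, *Cort*+/+ CL replicates 2 or 3 or *Cort*+/+ MCAO replicates 2 or 3, with adjusted p between 0.0508 and 0.0929. Over the 14 fits that leave out 1 library, the averaged log2 difference lay between 0.49 and 0.63. With a pseudocount of 1 the log2 difference of *Slc16a3* was 0.33 in *Cort*-/- mice, 0.26 in *Cort*+/+ mice and 0.30 in the average (limma adjusted p = 0.123, 0.587 and 0.0471).

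**Figure D2:**
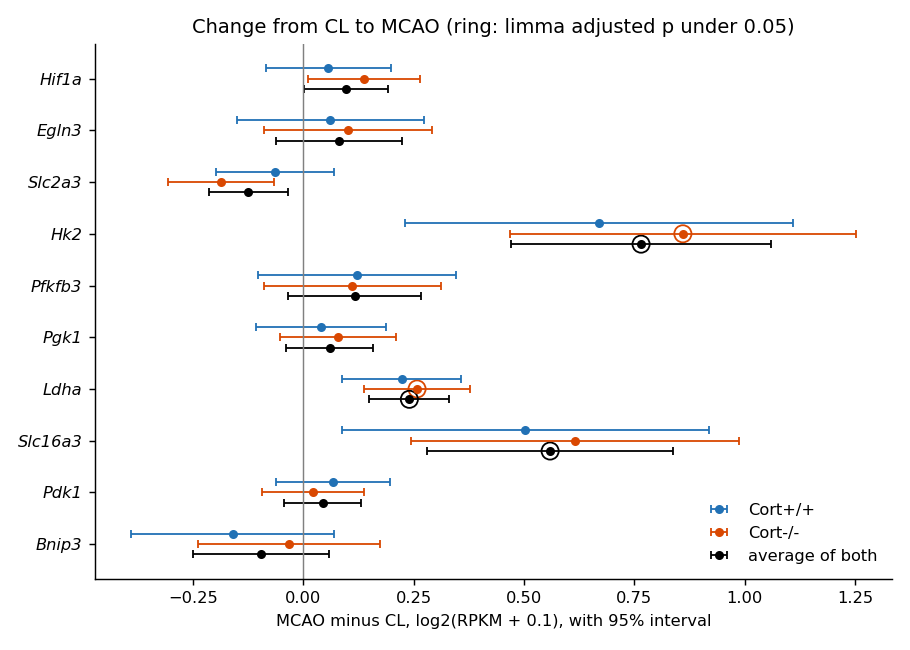
Change of each gene from CL to MCAO hemispheres on the log2(RPKM + 0.1) scale (horizontal axis), with 95% intervals, in *Cort*+/+ mice, in *Cort*-/- mice and as their average. Rings mark a limma adjusted p under 0.05. Rings stand at *Hk2* and *Ldha* in *Cort*-/- mice and at *Hk2*, *Ldha* and *Slc16a3* in the average.

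*Slc2a3*, which encodes the high-affinity glucose transporter GLUT3 of neurons, was the member with the most negative average. It was at 40.5, 38.3 and 42.1 RPKM in *Cort*-/- CL and at 32.4, 37.4, 35.7, 34.0 and 37.8 RPKM in *Cort*-/- MCAO libraries, and these groups did not overlap. In *Cort*+/+ mice it was at 39.7, 37.7 and 38.4 RPKM in CL and at 36.6, 35.5 and 38.8 RPKM in MCAO libraries, and these overlapped. The log2 difference was -0.19 in *Cort*-/- (standard error 0.06, limma adjusted p = 0.126) and -0.06 in *Cort*+/+ mice (standard error 0.06, limma adjusted p = 0.895), and neither passed. The *Cort*+/+ value was -0.04 without MCAO replicate 3 and -0.10 without MCAO replicate 4.

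*Hif1a* mRNA did not pass the test in either genotype. It was at 13.8, 13.6 and 11.7 RPKM in *Cort*-/- CL and at 14.04, 14.4, 14.5, 14.4 and 14.1 RPKM in *Cort*-/- MCAO libraries, which lay above all CL libraries within a narrow range. In *Cort*+/+ mice it was at 13.2, 13.0 and 14.8 RPKM in CL and at 13.8, 14.6 and 14.2 RPKM in MCAO libraries, and these overlapped. Its log2 difference was 0.14 (95% interval 0.01 to 0.27, limma adjusted p = 0.331) in *Cort*-/- and 0.06 (95% interval -0.09 to 0.20, limma adjusted p = 0.902) in *Cort*+/+ mice. Without *Cort*-/- CL replicate 3, its lowest library, the *Cort*-/- value was 0.06, and leaving out single libraries moved the *Cort*+/+ value between 0.02 (without CL replicate 2) and 0.12 (without CL replicate 3). The measurement is of RNA and does not speak to the amount of HIF protein.

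The remaining 5 members also did not pass. *Egln3*, at 2.66 to 3.71 RPKM over all libraries, had log2 differences of 0.06 in *Cort*+/+ and 0.10 in *Cort*-/- mice. *Pfkfb3* ranged from 6.74 to 9.49 RPKM, with differences of 0.12 and 0.11. *Pgk1* ranged from 112 to 135 RPKM, with differences of 0.04 and 0.08. *Pdk1* was at 11.2, 11.3 and 11.5 RPKM in *Cort*+/+ CL and at 11.7, 11.6 and 12.3 RPKM in *Cort*+/+ MCAO libraries, which did not overlap, but its difference was 0.07 (limma adjusted p = 0.887), and in *Cort*-/- mice, where the groups overlapped, it was 0.02. *Bnip3* was lower on average in both genotypes, by values of -0.16 and -0.03, with overlapping groups in each. These 5 signs are not stable: *Pgk1* in *Cort*+/+ mice was at -0.02 without *Cort*+/+ MCAO replicate 4 and -0.01 without *Cort*+/+ CL replicate 2, and *Egln3* at -0.02 without *Cort*+/+ CL replicate 1. Without *Cort*-/- CL replicate 2, *Pdk1* in *Cort*-/- mice was at -0.05, *Pfkfb3* at -0.0012 and *Bnip3* at 0.02, and *Bnip3* was at 0.01 without *Cort*-/- MCAO replicate 5. In all, MCAO libraries lay entirely above CL libraries for 3 of the 10 members in *Cort*+/+ mice and for 4 in *Cort*-/- mice, against 8.33% and 8.96% of the 17476 genes averaging 0.5 RPKM or more. They lay entirely below for 0 and 1 members, against 6.86% and 8.55%.

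Within *Cort*+/+ mice alone, limma called 0 of the 10 members, against 0.0108% of all tested genes (5 genes), and 3 members (*Hk2*, *Ldha* and *Slc16a3*) had an unadjusted p under 0.05, against 7.87% of tested genes. Limma voom on the recovered reads also called 0, against 0.124% of tested genes. Within *Cort*-/- mice, limma called 2 members, both higher, against 1.72% of tested genes called in either direction and 1.34% called higher, and 5 members had an unadjusted p under 0.05, against 12.7% of tested genes. Voom called 3, *Slc16a3* included (log2 difference 0.70, limma adjusted p = 0.0445), against 2.81% of tested genes in that fit. A call in one genotype and none in the other does not show that the genotypes differ, which the interaction tests directly.

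**Figure D3:**
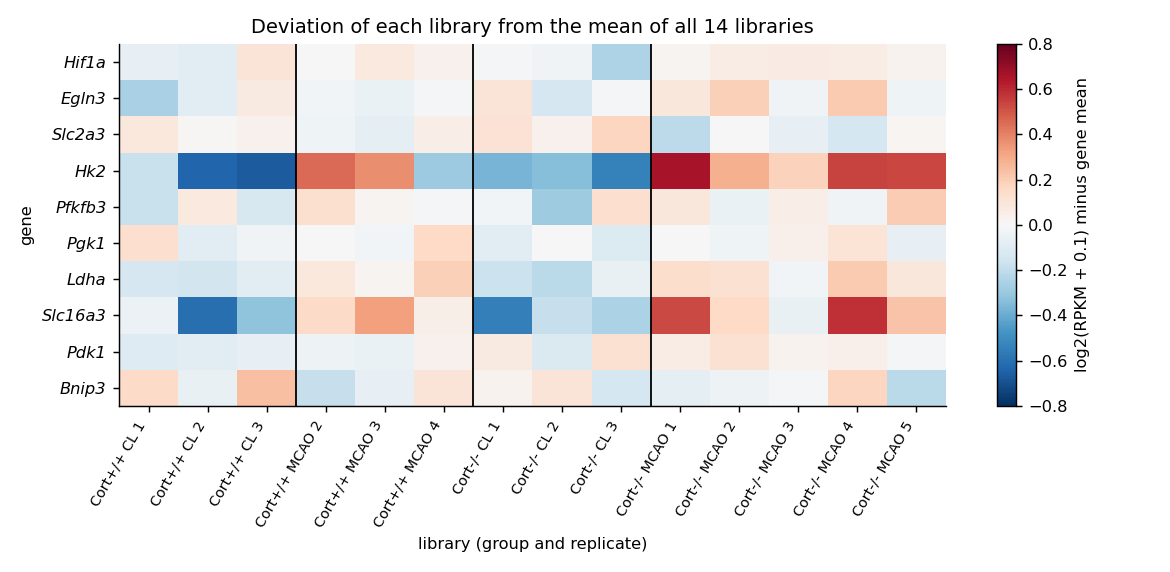
Deviation of each library (columns, by group and replicate) from the gene's mean over 14 libraries, as log2(RPKM + 0.1), for the 10 genes (rows). The rows of *Hk2* and *Slc16a3* carry the widest deviations, mostly below the mean in CL and above it in MCAO libraries, and *Cort*+/+ MCAO replicate 4 lies below the mean for *Hk2*.

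The genotypes were then compared to ask whether loss of cortistatin alters these genes. In CL hemispheres limma called 0 of 10 members, with log2 differences between *Cort*-/- and *Cort*+/+ mice from -0.12 (*Bnip3*) to 0.11 (*Pdk1*), against 0.0152% of tested genes called. In MCAO hemispheres it also called 0, with differences from -0.06 (*Slc2a3*) to 0.26 (*Hk2*), against 0.0174%. Without *Cort*+/+ MCAO replicate 4 these 2 values were -0.03 and 0.03. The value of *Hk2* was 0.40 without *Cort*+/+ MCAO replicate 2, and that of *Slc2a3* was -0.09 without *Cort*+/+ MCAO replicate 3. For the interaction, the change from CL to MCAO in *Cort*-/- minus that in *Cort*+/+ mice, it again called 0, against 0.00217%. None of these 3 comparisons gave a member with an unadjusted p under 0.05, against 3.91%, 3.82% and 3.31% of tested genes, and voom called 0 members in each, against 0.0325%, 0.026% and 0.0% of tested genes. The interaction for *Hk2* was 0.19, with a 95% interval from -0.40 to 0.78 that leaves room for a larger or a smaller response in *Cort*-/- mice. It turned to -0.04 without *Cort*+/+ MCAO replicate 4 and to -0.17 without the 3 libraries that stand apart. The interaction for *Slc2a3* was -0.12, with a 95% interval from -0.30 to 0.06. For *Ldha* the interval ran from -0.15 to 0.22.

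Several members belong to families whose other forms do the same step, so the share of each form was computed from RPKM. *Hk2* made up 1.01% ± 0.0708 (SD, n = 3) of the hexokinase transcripts *Hk1*, *Hk2* and *Hk3* in *Cort*-/- CL and 1.89% ± 0.303 (SD, n = 5) in *Cort*-/- MCAO hemispheres, while group means of *Hk1* lay between 76.7 and 80.0 RPKM. *Ldha* made up 26.7% ± 1.44 (SD, n = 3) of *Ldha* and *Ldhb* in *Cort*-/- CL and 30.8% ± 1.47 (SD, n = 5) in *Cort*-/- MCAO hemispheres, and 25.1% ± 1.53 (SD, n = 3) and 29.4% ± 0.602 (SD, n = 3) in *Cort*+/+ mice. *Slc16a3* made up 6.23% ± 1.10 (SD, n = 3) of *Slc16a1*, *Slc16a3* and *Slc16a7* in *Cort*-/- CL and 8.89% ± 0.956 (SD, n = 5) in *Cort*-/- MCAO hemispheres, and 6.02% ± 1.17 (SD, n = 3) and 8.14% ± 0.870 (SD, n = 3) in *Cort*+/+ mice. In *Cort*-/- mice these 3 shares did not overlap between CL and MCAO libraries and each reached an exact two-sided permutation p of 0.0179, the smallest that 3 against 5 libraries allow, but 0.107 after adjustment over the 18 shares compared. In *Cort*+/+ mice the share of *Hk2* was 1.01% ± 0.232 (SD, n = 3) in CL and 1.64% ± 0.448 (SD, n = 3) in MCAO hemispheres (exact permutation p = 0.2). In these mice the shares of *Ldha* and *Slc16a3* did not overlap either, with an exact permutation p of 0.1, the smallest that 3 against 3 allow. The shares of *Hif1a* among *Hif1a*, *Epas1* and *Hif3a*, and of *Slc2a3*, *Pfkfb3*, *Pdk1*, *Egln3* and *Bnip3* within their families, had exact permutation p of 0.143 or more.

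The rest of the pathway was examined from 4 lists. Among 15 other enzymes of glycolysis, 1 rose in the average over genotypes, against 2.52% of all tested genes called higher, and the median log2 difference was 0.01. This was *Hk3*, a hexokinase of myeloid cells, at 0.608, 0.405 and 0.328 RPKM in *Cort*+/+ CL, 1.77, 2.41 and 0.771 RPKM in *Cort*+/+ MCAO, 0.484, 0.601 and 0.552 RPKM in *Cort*-/- CL and 2.86, 1.59, 1.39, 3.01 and 2.40 RPKM in *Cort*-/- MCAO libraries. All MCAO libraries of *Hk3* lay above all CL libraries of their genotype. Its log2 difference was 1.58 in *Cort*+/+ (limma adjusted p = 0.213), 1.81 in *Cort*-/- (limma adjusted p = 0.0203) and 1.69 on average (limma adjusted p = 0.00339). The *Cort*-/- call of *Hk3* ended without any one of *Cort*-/- CL replicates 1, 2 or 3 or MCAO replicates 1 or 4. Dropping *Cort*+/+ MCAO replicate 4 brought a *Cort*+/+ call of *Hk3*. That library is among the 3 that stand apart, so the gained call supports nothing. The other 14 enzymes lay between -0.08 and 0.07 on average, with *Eno2* at -0.08, *Pfkp* at 0.07 and *Ldhb*, the partner of *Ldha*, at -0.06.

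Of 13 other transporters and switches of glucose and pyruvate use, 0 were called by limma or by voom in *Cort*+/+ mice, in *Cort*-/- mice or in the average. An unadjusted p under 0.05 was seen for 0, 2 and 3 of them, against 7.87%, 12.7% and 14.9% of tested genes. Those with the largest average log2 differences were *Pfkfb4* at 0.21, the lactate transporter *Slc16a1* at 0.19, the pyruvate dehydrogenase phosphatase *Pdp1* at -0.18 and *Pfkfb2* at -0.13. Of 12 genes of the HIF machinery, that is its subunits, hydroxylases and the ubiquitin ligase that removes it, limma and voom also called 0 in these 3 comparisons, and 0, 0 and 2 had an unadjusted p under 0.05, the last close to the 14.9% of all genes. The largest average differences were -0.49 for *Hif3a* (limma adjusted p = 0.562), -0.12 for *Eloc*, 0.11 for *Elob* and -0.06 for *Egln1*.

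Among 21 other hypoxia targets, 1 rose in the average over genotypes, against the same 2.52% of all genes, and 0 were called by limma in either genotype alone, with a median log2 difference of -0.02 in the average. In each genotype 2 had an unadjusted p under 0.05, near the shares of all genes (7.87% in *Cort*+/+ and 12.7% in *Cort*-/- mice). Voom called 0 in *Cort*+/+ and 1 in *Cort*-/- mice, against 0.124% and 2.81% of tested genes. The gene called in the average was *Hmox1*, the inducible heme oxygenase. It had a mean level of 3.09 ± 1.10 RPKM (SD, n = 3) in *Cort*+/+ CL, 7.06 ± 3.57 (SD, n = 3) in *Cort*+/+ MCAO, 3.25 ± 0.770 (SD, n = 3) in *Cort*-/- CL and 10.4 ± 4.11 RPKM (SD, n = 5) in *Cort*-/- MCAO hemispheres. Its average log2 difference was 1.33 (limma adjusted p = 0.0211). Without *Cort*-/- CL replicate 1 or 3, *Cort*+/+ CL replicate 3, or *Cort*+/+ MCAO replicate 2 or 3, the count of this list fell to 0. After *Hmox1*, the largest average differences among targets averaging 1 RPKM or more were 0.36 for *Adm*, a vasodilator peptide, -0.26 for *Ddit4*, an inhibitor of mTOR, and -0.17 for *Cited2*, a transcriptional co-regulator, and none of the other 20 targets passed in the average.

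**Figure D4:**
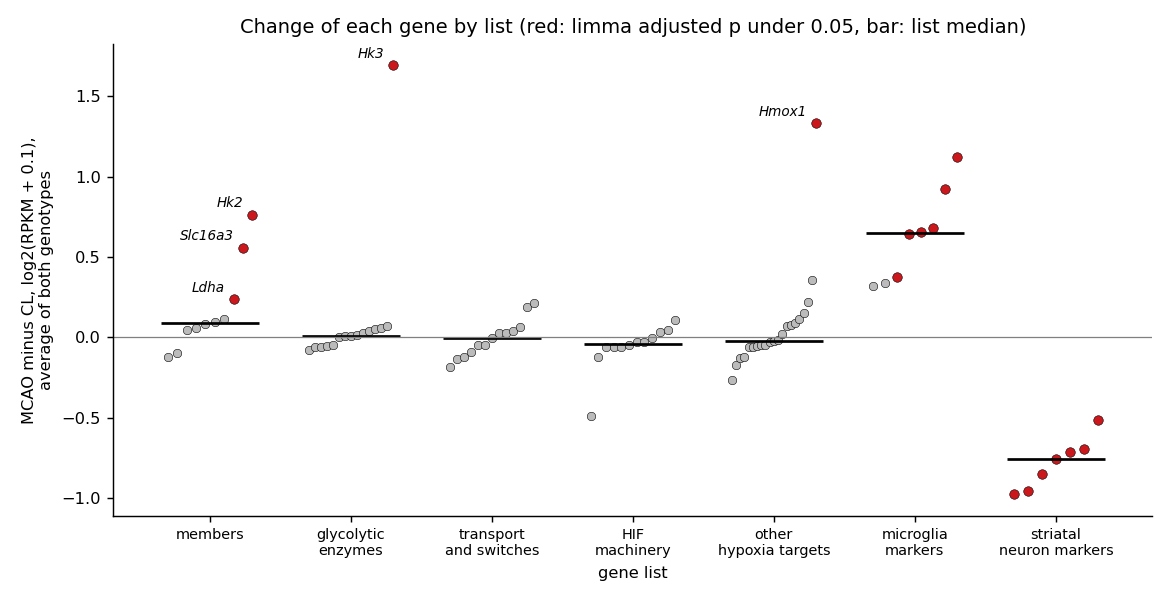
Change of each gene from CL to MCAO hemispheres, averaged over genotypes, on the log2(RPKM + 0.1) scale (vertical axis), by gene list (horizontal axis). Red points have a limma adjusted p under 0.05 and bars are list medians, which are 0.09 for the 10 members and between -0.04 and 0.01 for the 4 pathway lists, against 0.65 for microglia and -0.76 for striatal neuron markers.

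Markers of cell types moved together with the members that rose. All 8 microglia markers lay above 0 in the average, 6 of them called higher against 2.52% of all tested genes, and their summed level was 99.5 to 107 RPKM in *Cort*+/+ CL, 131 to 201 RPKM in *Cort*+/+ MCAO, 99.5 to 115 RPKM in *Cort*-/- CL and 149 to 221 RPKM in *Cort*-/- MCAO libraries. Infiltrating myeloid markers summed to 7.56 to 16.7 RPKM, 14.7 to 29.7 RPKM, 9.51 to 18.4 RPKM and 20.4 to 59.7 RPKM in the same order of groups. Of these 8 markers, 3 were called higher and 1 lay below 0 in the average. *Lyz2* was the largest part of each sum, with group means of 7.06, 15.3, 6.78 and 23.4 RPKM in that order. Of 7 markers of striatal neurons all 7 were called lower, against 0.902% of all tested genes, with sums from 386 to 432 RPKM in *Cort*+/+ CL, 216 to 359 RPKM in *Cort*+/+ MCAO, 384 to 407 RPKM in *Cort*-/- CL and 183 to 284 RPKM in *Cort*-/- MCAO libraries. Of the astrocyte markers 3 of 7 were called higher, of the endothelial markers 2 of 7, and of the 7 neuron, 7 oligodendrocyte and 5 red blood cell markers 0. Some other astrocyte markers were lower in MCAO hemispheres of both genotypes, by log2 differences down to -0.23 in *Cort*-/- mice. No marker was at 0 in every library of a group, so that neuronal, glial and vascular markers were all present in the labelled tissue. In bulk tissue, fewer cells of a type and less RNA per cell cannot be told apart. The part of these markers in the changes of the members was not tested.

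**Figure D5:**
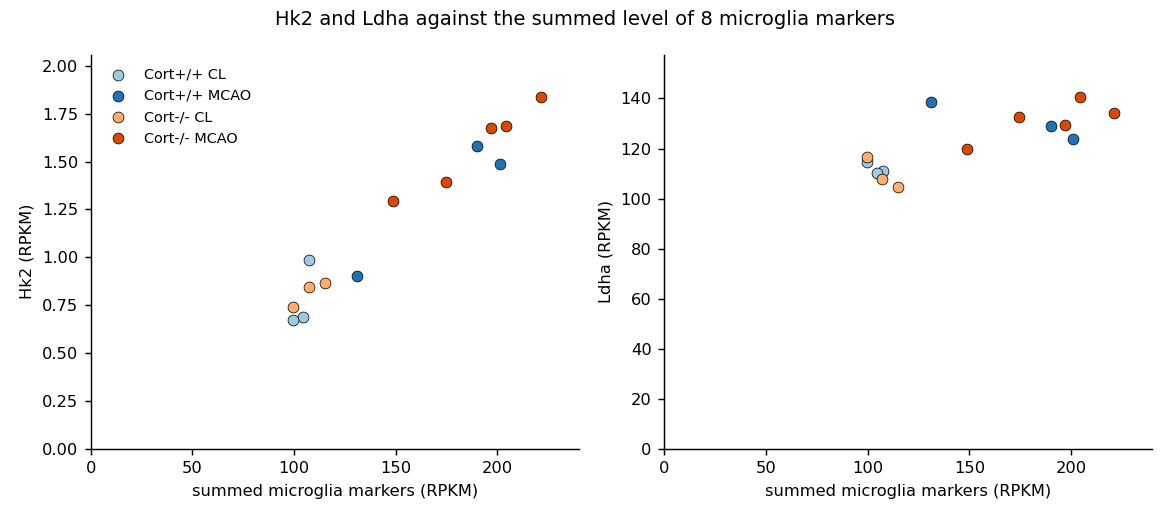
*Hk2* (left) and *Ldha* (right) in RPKM against the summed RPKM of 8 microglia markers, 1 point per library, coloured by group. *Hk2* follows the markers closely across all libraries (r = 0.97), including *Cort*+/+ MCAO replicate 4 at 131 and 0.903 RPKM, while *Ldha* is at 139 RPKM in that library.

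Across the 14 libraries, which share the split into CL and MCAO, log2 levels of *Hk2* had a Pearson r of 0.97 with the summed microglia markers. The value was 0.90 for *Slc16a3*, 0.78 for *Ldha* and -0.80 for *Slc2a3*, and lay between -0.41 and 0.51 for the other 6 members. With the summed infiltrating myeloid markers r was similar, at 0.91 for *Hk2*, 0.91 for *Slc16a3*, 0.63 for *Ldha* and -0.80 for *Slc2a3*. *Lyz2* was the largest part of that sum. With the summed striatal markers, r was -0.91 for *Hk2* and 0.83 for *Slc2a3*. These are descriptions over libraries that differ mainly by hemisphere. *Cort*+/+ MCAO replicate 4, which is among the libraries that stand apart, held the lowest *Hk2* level of all MCAO libraries, 0.903 RPKM. It also held the second highest *Ldha* level, 139 RPKM, and the highest *Pgk1* level, 135 RPKM, of all 14. The contrast of *Hk2* with *Ldha* there rests on 1 library.

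The genes most like each member were taken by Pearson r over the 14 libraries among those averaging 1 RPKM or more. For *Hk2* they were *Csf1r* (0.98), the receptor that microglia need to survive and itself one of the 8 microglia markers, *Itgb2* (0.98), a leukocyte integrin, and *Hk3* (0.98). For *Slc16a3* they were *Rpl27* (0.98), *Nme2* (0.98) and *Rpl18* (0.98), 2 of them ribosomal proteins. For *Ldha* they were *Serhl* (0.90), *Etfa* (0.90) and *Nupr1* (0.89). The 3 genes most like *Slc2a3* were *Mgat5b* (0.92), *Slc35f3* (0.92) and *Tiam2* (0.92). *Hif1a* was most like *P2ry13* (0.82), *Calcrl* (0.81) and *Gdi2* (0.81). *Pgk1* was most like *Uqcrc2* (0.93), *Grhpr* (0.89) and *Micos10* (0.88). *Pfkfb3* was most like *Atp6v0a2* (0.91), *Mgme1* (0.90) and *Xbp1* (0.90), and *Bnip3* most like *3110053B16Rik* (0.94), *B230208B08Rik* (0.94) and *Dact2* (0.92). *Egln3* was most like *Pdzrn3* (0.86), *Efhd2* (0.84) and the unnamed ENSMUSG00000124722 (0.82), and *Pdk1* most like *Mir6929* (0.85), ENSMUSG00000135685 (0.80) and *Golga7b* (0.74). These values are the highest of 15062 or 15063 genes each and carry no test.

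The members did not vary as one group. Of their 45 pairs, *Hk2* and *Slc16a3* had the highest r over the 14 libraries, 0.89, and *Pfkfb3* and *Bnip3* the lowest, -0.81. After the mean of each group was removed, the former value was 0.64 and the latter stayed at -0.80, while *Hk2* and *Ldha* went from 0.71 to -0.19. *Pgk1* and *Bnip3* were at 0.55 before and 0.75 after the group means were removed.

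On GRCm39 with GENCODE M39, *Pfkfb3* lies at chr2:11476244-11558888 and *Pdk1* at chr2:71703488-71734202. *Hk2* lies at chr6:82699740-82751469 and *Slc2a3* at chr6:122704768-122778599. *Ldha* lies at chr7:46490899-46505061 and *Bnip3* at chr7:138490690-138511253. *Slc16a3* lies at chr11:120838846-120851694, *Egln3* at chr12:54225767-54250673, *Hif1a* at chr12:73948149-73996321 and *Pgk1* at chrX:105230706-105247305. All 10 are protein-coding genes, and the values count reads over their exons.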

How the data were processed

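Gene expression was measured in 14 libraries of poly-A RNA. With reanalyzerGSE v3.0.0, the authors aligned 100 bp paired-end reads to GRCm39 and counted them on genes of GENCODE M28, and they deposited RPKM values per library without pooling replicates. Here log2(RPKM + 0.1) of the 46102 genes above 0 in at least 2 libraries was fitted with limma 3.58.1 (R 4.3.3), with 1 mean per group and a variance trend. Calls have a Benjamini-Hochberg adjusted p under 0.05 over all tested genes, and intervals are 95% intervals of that fit. RPKM values were turned back into reads (100% of 495656 values above 0 lay within 0.001 of a whole read), and limma voom was run on these. Shares of gene families were compared by exact two-sided permutation tests. The members, lists and tests were chosen with earlier results of these data known. A gene of the chosen lists is not reported here, and the list counts leave it out. Named genes are the 10 members, the called genes of each pathway list and its 4 of largest average change (averaging 1 RPKM or more), the 3 genes most like each member, and the relatives needed for the shares. Alternatives were other pseudocounts, filters, scalings, models, library weights, blocks of replicates and leaving out libraries. In simulated libraries, 91% of 2-fold and 97% of 4-fold changes in the *Cort*-/- comparison were found, with 13 false calls among 46102 genes. These changes were planted only in genes averaging 1 RPKM or more, with independent noise, and none was smaller than 2-fold. In the chosen fit every member changed by less than 2-fold. The simulation therefore does not tell how often such changes are found, and a member without a call is not shown to be unchanged. Gene positions come from GENCODE M39. Further tools were Python 3.11.15, scipy 1.17.1 and matplotlib 3.10.9.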

Additional observations from a re-analysis of the deposited data

How the results depend on the processing

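The averaged rises of *Hk2*, *Ldha* and *Slc16a3* kept their direction under the 11 alternatives run for the average and the 14 fits that leave out 1 library, but 3 members called became 0 with a replicate block and 0 with a replicate block within genotype. Over these 11 alternatives the averaged log2 difference ran from 0.44 to 0.98 for *Hk2* (adjusted p 0.00135 to 0.130), from 0.20 to 0.25 for *Ldha* (0.000899 to 0.279) and from 0.30 to 0.70 for *Slc16a3* (0.00872 to 0.240). The second block gives libraries without a partner number no weight. The count called in *Cort*-/- mice, 2, became 0 with only the groups compared, 0 with either replicate block, and 0 to 3 when single libraries were left out. Over all genes, voom on recovered reads called 57 genes in *Cort*+/+ mice, 1294 in *Cort*-/- mice and 2145 in the average, against 5, 792 and 1579 in the chosen fit, and only the groups compared gave 25 and 86 in the 2 genotypes. Without the 3 libraries that stand apart the *Cort*-/- count of members was 1, and in *Cort*+/+ mice 1 member (*Hk2*) was called in place of 0, which supports nothing, since these libraries were picked for lying toward the other hemisphere. Deviations of same-numbered CL and MCAO libraries correlated at -0.24 to 0.32 over 15063 genes. These values were not set against those of differently numbered libraries, so they do not settle whether same-numbered libraries share a mouse.

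Signs turned in these cases, and the cause was not tested. *Egln3* in *Cort*+/+ mice was at -0.0297 with a replicate block within genotype and -0.0297 without the 3 libraries. Without these 3 libraries, values in *Cort*-/- mice were -0.0012 for *Pfkfb3*, -0.0496 for *Pdk1* and 0.0210 for *Bnip3*, the average of *Pdk1* was -0.0089 and the interaction of *Hk2* was -0.17. With a replicate block within genotype the *Hk2* interaction was -0.27. Leaving out single libraries gave ranges of -0.0170 to 0.104 for *Pgk1* and -0.0210 to 0.142 for *Egln3* in *Cort*+/+ mice. In *Cort*-/- mice the ranges were -0.0012 to 0.208 for *Pfkfb3*, -0.0496 to 0.0682 for *Pdk1* and -0.100 to 0.0210 for *Bnip3*, and the *Hk2* interaction ranged from -0.0449 to 0.327.

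Depth limits *Slc16a3* and *Hk2*, with as few as 91 and 134 reads in a library, more than the other members. With 3 to 5 libraries per group, calls in a single genotype can end when 1 library is left out. The *Cort*-/- differences themselves then stayed between 0.80 and 0.92 for *Hk2* and between 0.22 and 0.30 for *Ldha*.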
